A study of Homo sapiens with 27 samples.

Results

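The NF-κB family was followed through 10 genes in diffuse large B-cell lymphoma (DLBCL) cells in which the mitochondrial deacetylase SIRT3 was knocked down. The genes were taken by name, with earlier results of these data known. They are 5 subunits (NFKB1, NFKB2, REL, RELA and RELB), 2 inhibitors (NFKBIA and TNFAIP3) and 3 genes that NF-κB is known to switch on (BCL2A1, CD40 and TRAF1), and all 10 were found among the 27115 genes listed for each library. RNA from 27 libraries was compared, with 3 replicates in each of 9 groups. The cells were 3 established DLBCL lines, Karpas422 (described in the study as an OXPHOS type), OCI-Ly1 (a germinal center B-cell-like line) and HBL1 (an activated B-cell-like line). Each line carried a lentiviral vector for 8 days that expressed a scrambled shRNA (shCTRL) or 1 of 2 shRNAs against SIRT3 (shSIRT3-1 and shSIRT3-2), so the controls had the same vector, puromycin resistance gene and YFP as the knockdown cells. Every group rests on a single line, and the labels number the replicates without saying whether they came from separate cultures, so the p-values measure only the spread between these samples, which may be technical.

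NF-κB is a set of dimeric transcription factors that B cells use to turn signals from antigen, CD40, Toll-like and TNF-family receptors into survival and activation programs. In resting cells the dimers are held in the cytoplasm by inhibitors such as IκBα, the product of NFKBIA, and a kinase complex (IKK) releases them by marking the inhibitor for destruction. The classical branch works mainly through RELA, REL and the p50 product of NFKB1, and the alternative branch through RELB and the p52 product of NFKB2. Several of the genes that NF-κB switches on encode its own subunits and inhibitors, and lasting NF-κB activity is a known trait of activated B-cell-like DLBCL.

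The DNA upstream of these genes is shown first, because several of them are known targets of the factor they build or restrain. RefSeq promoters (GRCh38.p14, from 250 bases before to 50 bases after each start) were searched on both strands for the κB consensus, a motif of 10 letters that NF-κB dimers bind. An entry was found for 8 of the 10 genes, and 5 of the 8 (62.5%) held at least 1 match. The share was 21 of 69 (30.4%) in a wider list of pathway genes described below, 1353 of 16834 (8.04%) among all genes listed in the libraries and 1937 of 27305 (7.09%) over all promoters. A match says only that these letters are in the window. Each sequence is written 5′ to 3′ on the strand of its gene, with the matching letters in capitals.
NFKB1, chr4:102501300-102501329, plus strand, match beginning 49 bases before the start: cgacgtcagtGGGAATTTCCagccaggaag
NFKB2, chr10:102394461-102394490, plus strand, match beginning 107 bases before a start: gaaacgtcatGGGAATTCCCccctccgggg
NFKB2, chr10:102395674-102395703, plus strand, match beginning 21 bases before another start: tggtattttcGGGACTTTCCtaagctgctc
REL, chr2:60881517-60881546, plus strand, match beginning 47 bases before the start: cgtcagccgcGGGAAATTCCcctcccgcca
NFKBIA, chr14:35404811-35404840, minus strand, match beginning 81 bases before the start: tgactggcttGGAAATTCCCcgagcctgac
TNFAIP3, chr6:137867182-137867211, plus strand, match beginning 67 bases before the start: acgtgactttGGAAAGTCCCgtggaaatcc

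The promoters of RELA, BCL2A1 and TRAF1 held no match in this window, which says nothing of NF-κB binding elsewhere. RELB and CD40 had no entry. The other matches were 3 more in NFKB2, 1 in REL that overlaps the sequence shown, and 1 in TNFAIP3 that lies 55 bases before the start. Of those in NFKB2, 1 begins 106 bases before the start and overlaps the first NFKB2 match shown. NFKB1 and NFKB2 also each had a promoter entry at another start without a match.

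Values are read counts scaled to library size (CPM), and between 28694398 and 53405456 reads per library fell on genes, with a median of 45669254. SIRT3 was below the lowest control library of its line in 18 of 18 knockdown libraries, but the shRNAs lowered it to different degrees. Its log2 fold change over the lines was −2.45 ± 0.17 (SE) with shSIRT3-1 and −1.37 ± 0.17 with shSIRT3-2. The shRNAs differed by 1.08 ± 0.17 (limma adjusted p = 4.57e-05). The response of SIRT3 also differed between lines (limma F test, adjusted p = 0.00291), and in Karpas422 it was −1.87 and −0.88. The 4 B-cell markers MS4A1, CD79A, CD79B and PAX5 summed to between 886 and 2057 CPM in every library, while 3 T-cell markers summed to at most 1.97 CPM and 3 myeloid markers to at most 1.08 CPM. HBL1 shSIRT3-1 replicate 3 stood furthest from the rest of its group, with a root mean square log2 distance of 0.733 against 0.187 to 0.480 in the other 26 libraries. In HBL1, replicate 3 was the lowest library in all 3 groups for 7 of the 10 genes (NFKB1, NFKB2, REL, RELB, TNFAIP3, BCL2A1 and CD40), which held for 20.5% of 11862 genes tested in that line. In OCI-Ly1, replicate 2 was the lowest in all 3 groups for REL, RELA and CD40, against 10.6% of 11205 genes. Results in each line that rest on these libraries are therefore given with and without them. In the fits over the lines HBL1 shSIRT3-1 replicate 3 was not left out alone. Because whole cultures were measured, fewer cells that make a transcript and less transcript per cell cannot be told apart.

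The first comparison was of the control cells, and asked how the lines differ before SIRT3 is touched. Of the 10 genes, 8 were higher in HBL1 than in Karpas422, 7 were higher in OCI-Ly1 than in Karpas422, and 6 were higher in HBL1 than in OCI-Ly1. A gene was called when its fold change passed 1.5 and its adjusted p was under 0.05 in limma, with p adjusted over all genes tested. By the same rule 54.6% of 12607 genes differed in either direction between HBL1 and Karpas422, 54.6% between HBL1 and OCI-Ly1 and 50.8% between OCI-Ly1 and Karpas422, so calls of this kind were common between lines. In the single direction of the genes counted, 25.8% of all genes were higher in HBL1 than in Karpas422, 29.6% were higher in HBL1 than in OCI-Ly1 and 22.6% were higher (28.2% lower) in OCI-Ly1 than in Karpas422. NFKB2, TNFAIP3, BCL2A1, CD40 and NFKBIA were higher in HBL1 than in each of the other lines, which held for 5 of the 10 genes and for 16.7% of all genes tested.

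Among the subunits, NFKB2 (chr10:104153867-104162281 in hg19, plus strand), which encodes p100 and its product p52, covered the widest range. Its control libraries had 3.39, 2.90 and 3.70 CPM in Karpas422, 17.5, 19.3 and 19.4 CPM in OCI-Ly1, and 129.7, 114 and 61.7 CPM in HBL1. The 3 lines did not overlap, and the log2 difference was 4.83 ± 0.24 (SE) between HBL1 and Karpas422 (limma adjusted p = 1.99e-08) and 2.37 ± 0.24 between HBL1 and OCI-Ly1 (limma adjusted p = 7.28e-06). RELB (chr19:45504719-45541450, plus strand), the partner of p52, had 2.61, 3.07 and 2.41 CPM in Karpas422, 23.6, 42.6 and 24.3 CPM in OCI-Ly1, and 55.1, 56.4 and 29.9 CPM in HBL1. Karpas422 lay below both other lines, whereas OCI-Ly1 and HBL1 overlapped and their log2 difference of 0.64 ± 0.28 was not called (limma adjusted p = 0.0649). Without OCI-Ly1 shCTRL replicate 2, the highest library, that difference was 0.91 ± 0.26 (limma adjusted p = 0.0116), and without HBL1 shCTRL replicate 3, the lowest in its line, it was 0.94 ± 0.24 (limma adjusted p = 0.00728).

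NFKB1 (chr4:103422487-103538459, plus strand), which encodes p105 and p50, followed the same order with smaller steps. Its control means were 14.01 ± 0.66 CPM in Karpas422, 50.02 ± 6.67 CPM in OCI-Ly1 and 71.0 ± 17.1 CPM in HBL1 (SD, n = 3 each). The step from Karpas422 to OCI-Ly1 was 1.82 ± 0.18 on the log2 scale and was called, while that from OCI-Ly1 to HBL1 was 0.48 ± 0.18 and stayed under the fold threshold. REL (chr2:61108626-61158747, plus strand), which encodes c-Rel, had 42.7 ± 5.94, 93.6 ± 27.9 and 119 ± 14.1 CPM in the same order, and here too only Karpas422 differed from the others. RELA (chr11:65421070-65430561, minus strand), the p65 subunit, was the most even of the 10 genes, with 39.5 ± 1.41, 45.3 ± 1.92 and 56.4 ± 5.30 CPM and no call between any pair of lines.

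The inhibitors differed in how much they set the lines apart. TNFAIP3 (chr6:138188351-138204451, plus strand) encodes A20, an enzyme that edits ubiquitin chains and shuts down signaling to IKK. Its control libraries held 0.441, 1.01 and 0.427 CPM in Karpas422, 11.1, 9.74 and 15.4 CPM in OCI-Ly1, and 136, 122 and 90.5 CPM in HBL1. The lines did not overlap, and HBL1 and Karpas422 differed by 7.39 ± 0.30 on the log2 scale (limma adjusted p = 4.03e-09). TNFAIP3 was tested only through the lines where it is high, and its Karpas422 values lie near the floor. NFKBIA (chr14:35870285-35873955, minus strand), whose product IκBα holds dimers in the cytoplasm, was high in HBL1 alone. It had 19.6, 19.1 and 14.9 CPM in Karpas422, 12.6, 20.4 and 11.6 CPM in OCI-Ly1, and 50.04, 48.3 and 52.4 CPM in HBL1. The first pair overlapped and differed by −0.30 ± 0.20 on the log2 scale, which was not called (limma adjusted p = 0.213).

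Of the genes that NF-κB switches on, BCL2A1 (chr15:80253234-80263538, minus strand) encodes an antiapoptotic BCL2 relative and was nearly silent in Karpas422. Its control libraries held 0.084, 0.071 and 0.084 CPM there, which is 7 to 9 reads, against 2.13, 2.22 and 2.51 CPM in OCI-Ly1 and 27.9, 28.8 and 13.1 CPM in HBL1. CD40 (chr20:44746910-44758502, plus strand), the receptor through which T cells stimulate B cells, had means of 2.12 ± 0.37, 28.8 ± 6.39 and 60.2 ± 23.3 CPM in the same order. TRAF1 (chr9:123664671-123691451, minus strand), an adaptor of TNF-family receptors, broke this order. It had 44.6, 43.5 and 37.7 CPM in Karpas422, 5.66, 7.87 and 6.98 CPM in OCI-Ly1, and 40.5, 40.1 and 24.5 CPM in HBL1. OCI-Ly1 was the low line, by 2.61 ± 0.20 below Karpas422 and 2.32 ± 0.20 below HBL1 on the log2 scale, while Karpas422 and HBL1 overlapped and their difference was not called (limma adjusted p = 0.218).

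Levels of different genes were compared only after division by the length of a reference transcript, in CPM per kilobase. In HBL1 controls NFKB2, NFKBIA and CD40 were at 33.7, 32.2 and 35.8 CPM per kilobase, above RELA at 22.4, NFKB1 at 17.5, REL at 10.7 and TRAF1 at 8.05. In Karpas422 controls RELA was highest at 15.7 CPM per kilobase, followed by NFKBIA at 11.5 and TRAF1 at 9.64, and the remaining 7 genes lay between 0.102 and 3.85. In OCI-Ly1 controls RELA (18.0 CPM per kilobase), CD40 (17.1), RELB (13.4) and NFKB1 (12.3) led, and TRAF1 was lowest at 1.57.

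**Figure D1:**
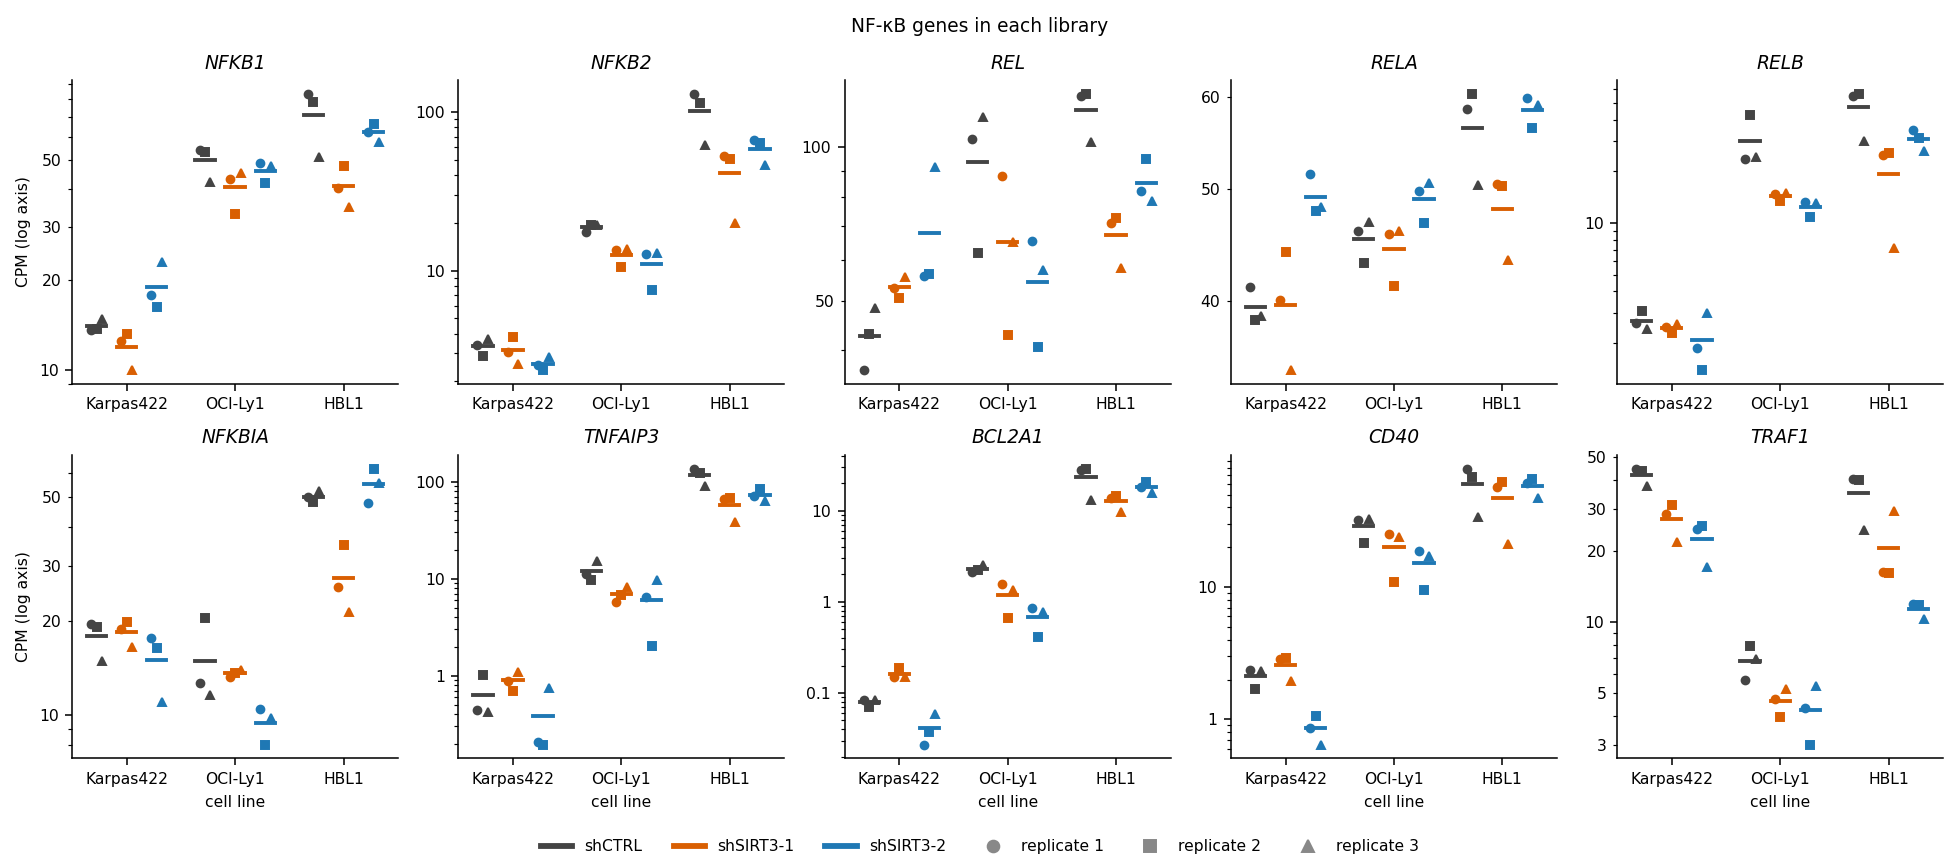
CPM of the 10 NF-κB genes in each of the 27 libraries, on a log axis that differs between panels. Points are libraries, shapes are replicate numbers, bars are group means and colors are shRNAs. NFKB2, TNFAIP3, BCL2A1 and CD40 climb from Karpas422 to OCI-Ly1 to HBL1, TRAF1 is lowest in OCI-Ly1, and the HBL1 triangles (replicate 3) are lowest in each group for 7 of the genes.

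Next, each shRNA was compared with shCTRL over the 3 lines together, with the line as a term in the fit. With shSIRT3-1, 3 of the 10 genes fell and none rose, and with shSIRT3-2, 6 fell and none rose. Over all 13076 genes tested, 13.0% were called with shSIRT3-1 (9.09% lower, 3.92% higher) and 13.5% with shSIRT3-2 (10.2% lower, 3.29% higher). NFKB2, RELB and TRAF1 fell with both shRNAs, which holds for 3.98% of all genes. The 2 comparisons share their control libraries, so the fall with 1 shRNA does not stand apart from that with the other. The median log2 fold change of the 10 genes was −0.42 with shSIRT3-1 and −0.67 with shSIRT3-2, and over all genes it was −0.05 and −0.03. Among all calls 69.9% and 75.6% were lower, and after quantile normalization these shares were 54.6% and 57.4%.

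The subunits did not move as a block. Over the lines, RELB fell by 0.86 ± 0.23 on the log2 scale with shSIRT3-1 (limma adjusted p = 0.00499) and by 0.73 ± 0.23 with shSIRT3-2 (limma adjusted p = 0.0151). NFKB2 fell by 0.68 ± 0.20 (limma adjusted p = 0.00802) and by 0.63 ± 0.20 (limma adjusted p = 0.0132). These are the subunits of the alternative branch. Taken by line, neither was called in Karpas422 with either shRNA, nor in HBL1 with shSIRT3-2. NFKB1 had a log2 fold change of −0.44 ± 0.11 with shSIRT3-1, which passed the p threshold (limma adjusted p = 0.00347) but not the fold threshold, and 0.05 ± 0.11 with shSIRT3-2. REL had −0.34 ± 0.18 and −0.20 ± 0.18, and RELA had −0.09 ± 0.06 and 0.16 ± 0.06, and neither was called with either shRNA.

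Neither inhibitor was called with shSIRT3-1, and TNFAIP3 alone was called with shSIRT3-2, where it fell by 0.85 ± 0.28 (limma adjusted p = 0.0187). NFKBIA had −0.31 ± 0.18 and −0.25 ± 0.18. Of the genes that NF-κB switches on, TRAF1 fell by 0.65 ± 0.15 with shSIRT3-1 (limma adjusted p = 0.0013) and by 1.07 ± 0.15 with shSIRT3-2 (limma adjusted p = 7.37e-06). BCL2A1 fell by 0.77 ± 0.24 (limma adjusted p = 0.0133) and CD40 by 0.72 ± 0.26 (limma adjusted p = 0.0318) with shSIRT3-2, and their values with shSIRT3-1 were −0.41 ± 0.24 and −0.25 ± 0.26. TNFAIP3 and BCL2A1 passed the filter on low values only through OCI-Ly1 and HBL1. In Karpas422 TNFAIP3 reached at most 1.09 CPM (103 reads) and BCL2A1 at most 0.188 CPM (21 reads) in a library. Their values over the lines therefore include libraries near the floor. With a pseudocount of 1 the call of BCL2A1 was lost and that of TNFAIP3 was kept. Leaving out replicate 1 or replicate 2 of every group left 1 call with shSIRT3-2, TRAF1, and leaving out replicate 2 left 1 call with shSIRT3-1, NFKB2. Leaving out replicate 1 or replicate 3 lost the call of NFKB2 with shSIRT3-1 and kept those of RELB and TRAF1. Without the HBL1 libraries the only call with shSIRT3-1 was TRAF1, and without the OCI-Ly1 libraries the only call with shSIRT3-2 was TRAF1. Without the Karpas422 libraries 6 genes were called with shSIRT3-1, the 3 above with REL, TNFAIP3 and BCL2A1 added. Of 16 alternatives, the call with shSIRT3-2 was lost in 8 for CD40, 6 for NFKB2, 4 each for TNFAIP3 and BCL2A1, 3 for RELB and 0 for TRAF1. For NFKB2 these included quantile normalization and leaving out the HBL1 libraries.

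When the shRNAs were compared with each other over the lines, none of the 10 genes was called by limma, and none by edgeR on reads recovered from the CPM values. By the same rule 11.3% of all genes were called (6.05% lower and 5.27% higher with shSIRT3-2). At an unadjusted p under 0.05 there were 3 genes. NFKB1 was higher with shSIRT3-2 by 0.49 ± 0.11 on the log2 scale (limma adjusted p = 0.00201), RELA by 0.25 ± 0.06 (limma adjusted p = 0.00189), and TRAF1 was lower by 0.41 ± 0.15 (limma adjusted p = 0.0368), all under the fold threshold. For CD40 the difference was −0.47 with a 95% interval of −1.01 to 0.07, and for TNFAIP3 −0.42 with −0.998 to 0.16, so differences past the fold threshold lie within these intervals.

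**Figure D2:**
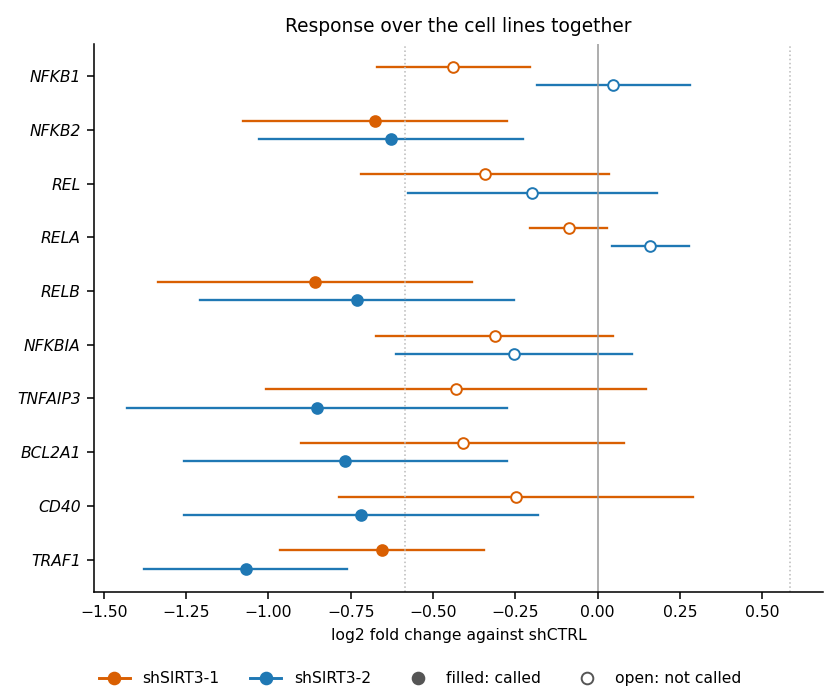
Log2 fold change of the 10 NF-κB genes against shCTRL over the 3 lines, with 95% intervals, for shSIRT3-1 and shSIRT3-2. Filled points passed the fold and p thresholds, and dotted lines mark a fold of 1.5. RELB, NFKB2 and TRAF1 are filled for both shRNAs, and TNFAIP3, BCL2A1 and CD40 for shSIRT3-2.

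The lines were then taken alone, to see where these shifts arose. HBL1, the line with the highest levels, had 7 of 10 genes lower with shSIRT3-1 and 1 of 10 lower with shSIRT3-2. Calls were frequent in this line, at 27.7% of 11862 genes with shSIRT3-1 (18.8% lower, 8.83% higher) and 23.5% with shSIRT3-2 (16.0% lower, 7.51% higher). Of the calls over all genes 68.0% were lower with either shRNA. After quantile normalization the shares were 48.4% with shSIRT3-1 and 49.6% with shSIRT3-2, and after median-ratio scaling 56.4% and 52.7%. The median log2 change of all genes with shSIRT3-1 was −0.11 on the values as used and 0.04 after quantile normalization. With shSIRT3-2 it was −0.06 and, after median-ratio scaling, 0.06. The 10 genes had medians of −0.81 and −0.38 on the values as used.

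With shSIRT3-1 in HBL1, NFKB2 had 52.8, 50.7 and 19.8 CPM, all below the lowest control at 61.7 CPM, and fell by 1.36 ± 0.40 on the log2 scale (limma adjusted p = 0.0262). RELB had 25.0, 25.5 and 7.15 CPM against a lowest control of 29.9 CPM, and fell by 1.44 ± 0.46 (limma adjusted p = 0.0362). REL had 71.0, 72.7 and 58.0 CPM against 126, 127 and 102 CPM in controls, and NFKB1 had 40.6, 47.7 and 34.9 CPM against 83.2, 78.3 and 51.5 CPM. REL fell by 0.82 ± 0.13 (limma adjusted p = 0.00184) and NFKB1 by 0.77 ± 0.19 (limma adjusted p = 0.0118). RELA had 50.4, 50.3 and 43.4 CPM, which overlapped with its controls of 58.6, 60.3 and 50.4 CPM, and was not called (−0.23 ± 0.10).

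Both inhibitors fell in HBL1 with shSIRT3-1. NFKBIA had 25.6, 35.2 and 21.4 CPM against controls of 48.3 to 52.4 CPM, a fall of 0.90 ± 0.17 (limma adjusted p = 0.00419). TNFAIP3 had 67.1, 67.5 and 38.3 CPM and fell by 1.03 ± 0.24 (limma adjusted p = 0.00965). TRAF1 had 16.3, 16.1 and 29.6 CPM, where the third library lay inside the control range, and fell by 0.78 ± 0.27 (limma adjusted p = 0.0450). BCL2A1, at 13.9, 14.5 and 9.67 CPM, had −0.80 ± 0.30 and was not called (limma adjusted p = 0.0586), nor was CD40, at 57.1, 62.5 and 21.3 CPM (−0.42 ± 0.43).

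With shSIRT3-2 in HBL1, TRAF1 had between 10.2 and 11.96 CPM, all below the lowest control at 24.5 CPM, and fell by 1.59 ± 0.27 (limma adjusted p = 0.00262). NFKBIA had 48.1, 61.7 and 55.6 CPM and overlapped with its controls (0.13 ± 0.17). NFKB2 (−0.74 ± 0.40), RELB (−0.56 ± 0.46) and TNFAIP3 (−0.67 ± 0.24) were not called. REL passed the p threshold only, at −0.47 ± 0.13 (limma adjusted p = 0.0227). The libraries of 6 genes with shSIRT3-1 and of 3 genes with shSIRT3-2 all lay below the lowest control, which held for 30.8% and 34.2% of genes tested in HBL1.

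Replicate numbers were taken to pair the libraries in HBL1 and in OCI-Ly1, and those of Karpas422 may be paired as well. A fit with the number as a block was therefore made beside the one above. In HBL1 the block kept 7 calls with shSIRT3-1, with BCL2A1 gained (−0.80 ± 0.17, limma adjusted p = 0.0071) and TRAF1 lost (limma adjusted p = 0.0601). With shSIRT3-2 it gave 3 calls, adding NFKB2 (−0.74 ± 0.17, limma adjusted p = 0.0119) and TNFAIP3 (−0.67 ± 0.13, limma adjusted p = 0.0053) to TRAF1. Without replicate 3 in every HBL1 group, a choice made after these values were seen, 8 genes were called with shSIRT3-1 and 4 with shSIRT3-2. The 8 were the 7 above and BCL2A1, and the 4 were NFKB2 (−0.90 ± 0.07), RELB (−0.75 ± 0.07), TNFAIP3 (−0.73 ± 0.08) and TRAF1 (−1.76 ± 0.06). Calls also rose in the wider list described below, which had 17 and 22 of 76 genes in the first fit. It had 19 and 29 with the block, and 23 and 34 of 75 without replicate 3. The shares of all genes called in these fits are not given here. Leaving out HBL1 shCTRL replicate 3 alone gave 3 calls with shSIRT3-2 (TNFAIP3, BCL2A1 and TRAF1), as did leaving out HBL1 shSIRT3-1 replicate 3 (NFKB2, TNFAIP3 and TRAF1). The 7 calls with shSIRT3-1 were kept without HBL1 shSIRT3-1 replicate 3. Conversely, without HBL1 shCTRL replicate 2 the calls with shSIRT3-1 were 3 (REL, NFKBIA and TNFAIP3), and without HBL1 shCTRL replicate 1 they were 4 (NFKB1, REL, NFKBIA and TNFAIP3). RELB and TRAF1 also lost their calls with shSIRT3-1 without any 1 of the HBL1 shSIRT3-2 libraries, which enter the shared estimate of spread, and in edgeR, and TRAF1 lost it without HBL1 shSIRT3-1 replicate 1 or 2 and under both other scalings.

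In OCI-Ly1, where calls were rare, 1 of 10 genes fell with shSIRT3-1 and 3 of 10 with shSIRT3-2. Over 11205 genes, 4.50% were called with shSIRT3-1 (2.45% lower, 2.04% higher) and 6.41% with shSIRT3-2 (4.26% lower, 2.15% higher). The median of the 10 genes was −0.56 and −0.78 on the log2 scale, against 0.02 and 0.01 over all genes. RELB had 14.8, 13.4 and 14.9 CPM with shSIRT3-1 and 13.3, 10.8 and 13.0 CPM with shSIRT3-2, against 23.6, 42.6 and 24.3 CPM in controls. No library overlapped, and RELB fell by 1.01 ± 0.20 (limma adjusted p = 0.0243) and by 1.23 ± 0.20 (limma adjusted p = 0.0137). This was the only gene called with both shRNAs in OCI-Ly1, as 0.678% of all genes were in the lower and 0.571% in the higher direction.

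NFKB2 had 13.6, 10.5 and 13.7 CPM with shSIRT3-1 and 12.6, 7.53 and 12.8 CPM with shSIRT3-2, below all 3 controls in each case. It fell with shSIRT3-2 by 0.80 ± 0.20 (limma adjusted p = 0.0369) and was not called with shSIRT3-1 (−0.57 ± 0.20, limma adjusted p = 0.103). BCL2A1 had 1.56, 0.657 and 1.34 CPM, and then 0.851, 0.411 and 0.765 CPM, against controls of 2.13 to 2.51 CPM. It fell with shSIRT3-2 by 1.67 ± 0.33 (limma adjusted p = 0.0192) and had −0.97 ± 0.33 with shSIRT3-1 (limma adjusted p = 0.0966). CD40 (−0.59 ± 0.35 and −0.96 ± 0.35), TRAF1 (−0.55 ± 0.21 and −0.70 ± 0.21), TNFAIP3 (−0.78 ± 0.46 and −1.21 ± 0.46) and REL (−0.53 ± 0.30 and −0.76 ± 0.30) were not called. The libraries of 5 genes with shSIRT3-1 and of 6 with shSIRT3-2 all lay below the lowest control, against 15.0% and 18.0% of all genes.

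With the replicate number as a block, the calls in OCI-Ly1 rose to 3 with shSIRT3-1 (RELB, BCL2A1 and CD40) and to 7 with shSIRT3-2 (NFKB2, REL, RELB, TNFAIP3, BCL2A1, CD40 and TRAF1). In that fit CD40 had −0.59 ± 0.12 (limma adjusted p = 0.0244) and −0.96 ± 0.12 (limma adjusted p = 0.0047), and BCL2A1 with shSIRT3-1 had an adjusted p of 0.0378 in limma. Calls in the wider list described below rose with the block as well, from 3 and 11 of 63 genes to 6 and 15. The share of all genes called in the fit with the block is not given here. The calls without the block also rested on single libraries. With shSIRT3-1 no gene was called without OCI-Ly1 shCTRL replicate 3 or without any 1 of the 3 shSIRT3-1 libraries. With shSIRT3-2 no gene was called without shSIRT3-2 replicate 2, and RELB alone without shSIRT3-2 replicate 3 or shCTRL replicate 3. NFKB2 also lost its call without shCTRL replicate 2, shSIRT3-1 replicate 1 or 3, or shSIRT3-2 replicate 1. Without replicate 2 in every OCI-Ly1 group, again chosen after the values were seen, RELB was called with shSIRT3-1 (−0.68 ± 0.08), and REL (−0.83 ± 0.16), RELB (−0.86 ± 0.08), BCL2A1 (−1.41 ± 0.18) and CD40 (−0.85 ± 0.08) with shSIRT3-2.

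In Karpas422 only 8 of the 10 genes were abundant enough to test, since TNFAIP3 and BCL2A1 fell under the filter of 1 CPM in at least 3 libraries. Of the 8, TRAF1 fell with both shRNAs, CD40 fell and REL rose with shSIRT3-2. TRAF1 was the only one lower with both, as were 4.79% of all genes. All genes tested were called at 16.0% with shSIRT3-1 (11.5% lower, 4.45% higher) and 15.0% with shSIRT3-2 (9.44% lower, 5.55% higher). Of the calls over all genes with shSIRT3-1, 72.1% were lower, and 53.0% after quantile normalization and 60.3% after median-ratio scaling. TRAF1 had 28.7, 31.4 and 21.9 CPM with shSIRT3-1 and 24.8, 25.5 and 17.1 CPM with shSIRT3-2, all below the lowest control at 37.7 CPM. It fell by 0.63 ± 0.17 (limma adjusted p = 0.0208) and by 0.92 ± 0.17 (limma adjusted p = 0.00445). The call with shSIRT3-1 was lost without shCTRL replicate 1, shCTRL replicate 2 or shSIRT3-1 replicate 3, with either other scaling and in edgeR on recovered reads, and the value lies close to the fold threshold.

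CD40 in Karpas422 had 0.858, 1.07 and 0.644 CPM with shSIRT3-2 against 2.35, 1.70 and 2.31 CPM in controls, and fell by 1.23 ± 0.23 (limma adjusted p = 0.00414). With shSIRT3-1 it had 2.84, 2.91 and 1.96 CPM, which overlapped with the controls (0.26 ± 0.23). REL had 56.0, 56.3 and 91.3 CPM with shSIRT3-2 against 36.6, 43.0 and 48.5 CPM in controls and rose by 0.64 ± 0.18 (limma adjusted p = 0.0238). With shSIRT3-1 its libraries, at 53.1, 50.7 and 55.7 CPM, also lay above all controls, but it was not called (0.32 ± 0.18). The call of REL was lost without shCTRL replicate 1, shCTRL replicate 2 or shSIRT3-2 replicate 3, its highest library, while those of CD40 and TRAF1 with shSIRT3-2 were kept under each single library left out. NFKB1 (0.42 ± 0.15) and RELA (0.31 ± 0.09) lay above all controls with shSIRT3-2 without being called. NFKB2 (−0.09 ± 0.17 with shSIRT3-1 and −0.35 ± 0.17 with shSIRT3-2) and RELB (−0.13 ± 0.24 and −0.41 ± 0.24) were not called either. Above the highest control lay 1 of 8 genes with shSIRT3-1 and 3 of 8 with shSIRT3-2, against 19.0% and 22.6% of all genes, and below the lowest 2 and 3 of 8, against 32.2% and 24.4%. The untested pair were close to silent, with TNFAIP3 at 0.195 to 1.09 CPM over the 9 libraries. BCL2A1 had 9, 7 and 9 reads in controls, 14, 21 and 14 with shSIRT3-1, and 3, 4 and 7 with shSIRT3-2. In CPM the groups did not overlap, with shSIRT3-1 above the controls and shSIRT3-2 (0.027, 0.037 and 0.059 CPM) below them, and at so few reads no test was made.

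**Figure D3:**
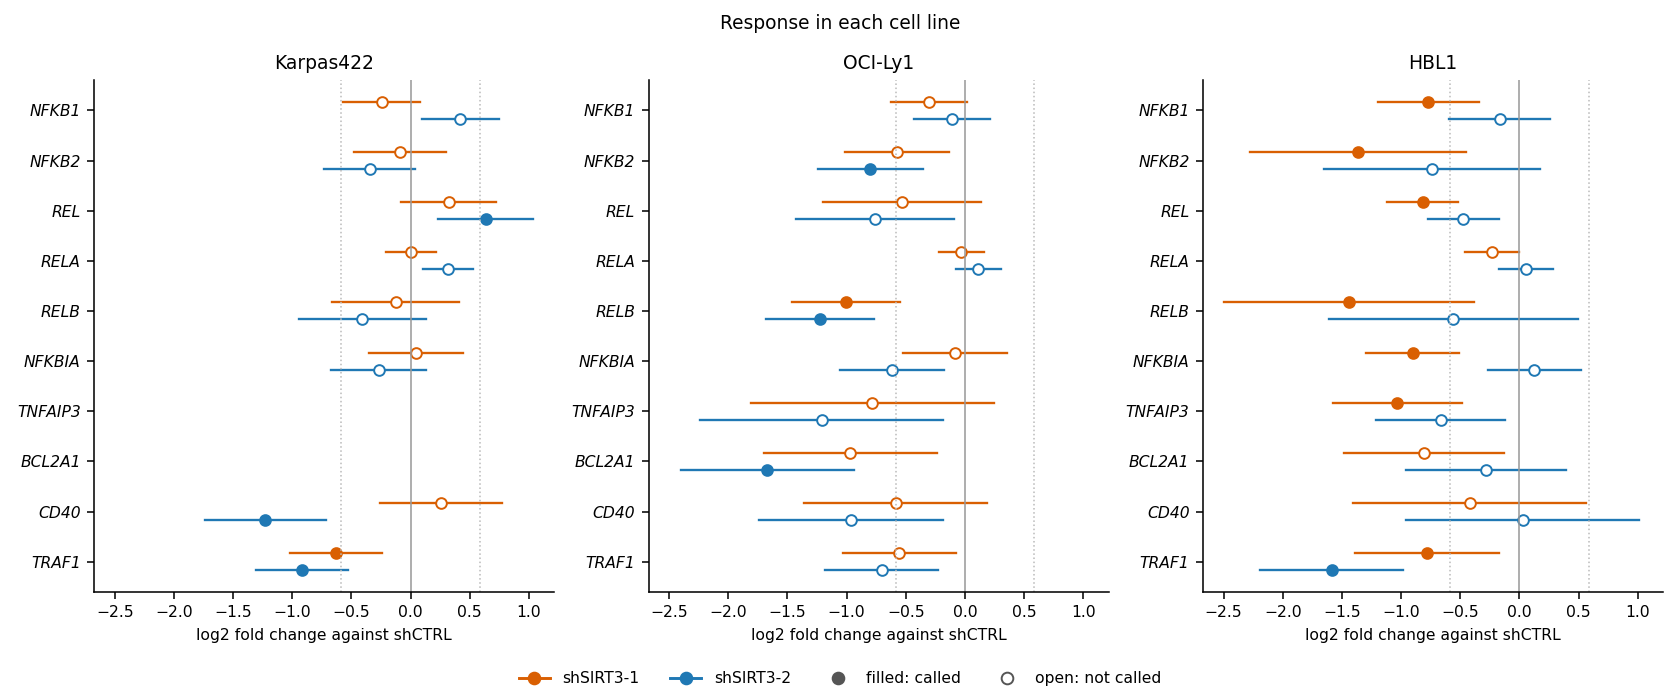
Log2 fold change of the 10 NF-κB genes against shCTRL in each line, with 95% intervals. Filled points passed the fold and p thresholds, dotted lines mark a fold of 1.5, and TNFAIP3 and BCL2A1 were not tested in Karpas422. With shSIRT3-1 7 points are filled in HBL1, 1 in OCI-Ly1 and 1 in Karpas422, and REL with shSIRT3-2 in Karpas422 is the single filled point to the right of 0.

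Whether the lines responded differently was tested with the 4 interaction terms of line and shRNA. NFKBIA, BCL2A1, REL and CD40 passed, which is 4 of the 10 genes against 41.8% of all genes, a share near the background. For NFKBIA, shSIRT3-1 and shSIRT3-2 had −0.90 and 0.13 in HBL1, −0.08 and −0.62 in OCI-Ly1, and 0.05 and −0.27 in Karpas422 (limma adjusted p = 0.00159). For REL, Karpas422 had 0.32 and 0.64, OCI-Ly1 −0.53 and −0.76, and HBL1 −0.82 and −0.47 (limma adjusted p = 0.0116). NFKB2, RELB, NFKB1, TNFAIP3, TRAF1 and RELA did not pass, with limma adjusted p values from 0.0860 to 0.229. With the replicate number as a block, NFKB2 (limma adjusted p = 0.00600), RELB (0.0209) and NFKB1 (0.0448) passed as well, which made 7 of the 10 genes, and so did 7695 of all 13076 genes. Without replicate 3 of every group 6 passed (NFKB1, NFKB2, RELB, NFKBIA, BCL2A1 and TRAF1), REL and CD40 did not, and 4709 of 12768 genes did.

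The shRNAs were also compared with each other within each line, a comparison added after the values were seen. In HBL1 3 of 10 genes differed (27.9% of all genes). NFKBIA was 1.03 ± 0.17 higher on the log2 scale with shSIRT3-2 than with shSIRT3-1 (limma adjusted p = 0.0032), NFKB1 was 0.60 ± 0.19 higher (limma adjusted p = 0.0327) and TRAF1 was 0.81 ± 0.27 lower (limma adjusted p = 0.0406). With the replicate block NFKBIA and NFKB1 stayed called, TRAF1 did not (limma adjusted p = 0.0531), and NFKB2 (0.63 ± 0.17, limma adjusted p = 0.0197) and RELB (0.89 ± 0.27, limma adjusted p = 0.0306) were called higher with shSIRT3-2. In Karpas422 2 of 8 genes differed (11.5% of all genes), with NFKB1 0.66 ± 0.15 higher (limma adjusted p = 0.0128) and CD40 1.49 ± 0.23 lower with shSIRT3-2 (limma adjusted p = 0.00345). In OCI-Ly1 0 of 10 genes were called by limma with or without the block (4.68% of all genes without it). The 3 comparisons each use 1 fit per line, with p adjusted over all genes of that line.

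The wider pathway was then described with 83 further genes, grouped by role. With shSIRT3-1 over the lines 7 of the 78 tested were called (2 higher and 5 lower), and with shSIRT3-2 13 were (1 higher and 12 lower). Both counts are near the shares of all genes called, 13.0% and 13.5%. Their median log2 fold changes were −0.05 and −0.10, close to the −0.05 and −0.03 of all genes. The lower calls with shSIRT3-2 included 7 of 14 ligands and receptors, 4 of 25 targets, 1 of 13 inhibitors and none of 26 IKK components and adaptors. With shSIRT3-1 they were 2 of 14, 2 of 25, 0 of 13 and 1 of 26 in the same order. Of all genes 10.2% were lower with shSIRT3-2 and 9.09% with shSIRT3-1. Ligands and receptors had a median of −0.58 with shSIRT3-2 and −0.02 with shSIRT3-1. Leaving out replicate 2 of every group cut the calls to 3 and 4, and leaving out replicate 1 cut those with shSIRT3-2 to 6.

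Called with both shRNAs over the lines were 4 of these genes, 3 lower and 1 higher, and these shares are near the 3.98% and 1.10% of all genes. TNFRSF17, which encodes BCMA, a receptor for the survival ligands BAFF and APRIL, fell by 1.62 ± 0.36 on the log2 scale with shSIRT3-1 (limma adjusted p = 0.000969) and by 1.33 ± 0.36 with shSIRT3-2 (limma adjusted p = 0.00525). Its mean went from 53.0 ± 7.29 CPM in HBL1 controls to 9.42 ± 6.13 and 9.61 ± 2.66 CPM, and from 3.73 ± 0.22 to 0.745 ± 0.32 and 1.47 ± 0.37 CPM in Karpas422, while in OCI-Ly1 it was 1.56 ± 0.64, 1.73 ± 0.13 and 1.28 ± 0.21 CPM. TLR7, a sensor of single-stranded RNA, fell by 0.83 ± 0.31 and 0.99 ± 0.31, and its response differed between lines (limma adjusted p = 0.000839). In HBL1 TLR7 fell from 5.94 ± 0.90 CPM to 0.978 ± 0.46 and 1.55 ± 0.51 CPM. IL2RA, the alpha chain of the interleukin-2 receptor, fell by 1.05 ± 0.28 and 0.87 ± 0.28 and was expressed mainly in OCI-Ly1, at 19.2 ± 4.72 CPM in controls and 4.48 ± 2.05 and 7.01 ± 4.09 CPM after knockdown. In the other lines IL2RA reached at most 0.173 CPM, and in OCI-Ly1 alone it was called with shSIRT3-1 (−2.17 ± 0.53, limma adjusted p = 0.0408) and not with shSIRT3-2 (−1.66 ± 0.53, limma adjusted p = 0.0785).

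MYD88, the adaptor that links Toll-like receptors to IKK, rose by 0.64 ± 0.15 with shSIRT3-1 (limma adjusted p = 0.00147) and by 0.97 ± 0.15 with shSIRT3-2 (limma adjusted p = 1.9e-05). Its means were 36.2 ± 12.2, 66.5 ± 11.5 and 89.6 ± 2.00 CPM in Karpas422, 30.2 ± 6.01, 43.9 ± 1.10 and 42.0 ± 1.36 CPM in OCI-Ly1, and 46.1 ± 11.1, 63.6 ± 20.1 and 95.9 ± 18.1 CPM in HBL1, for shCTRL, shSIRT3-1 and shSIRT3-2. A difference between lines was not detected for MYD88 (limma adjusted p = 0.130).

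**Figure D4:**
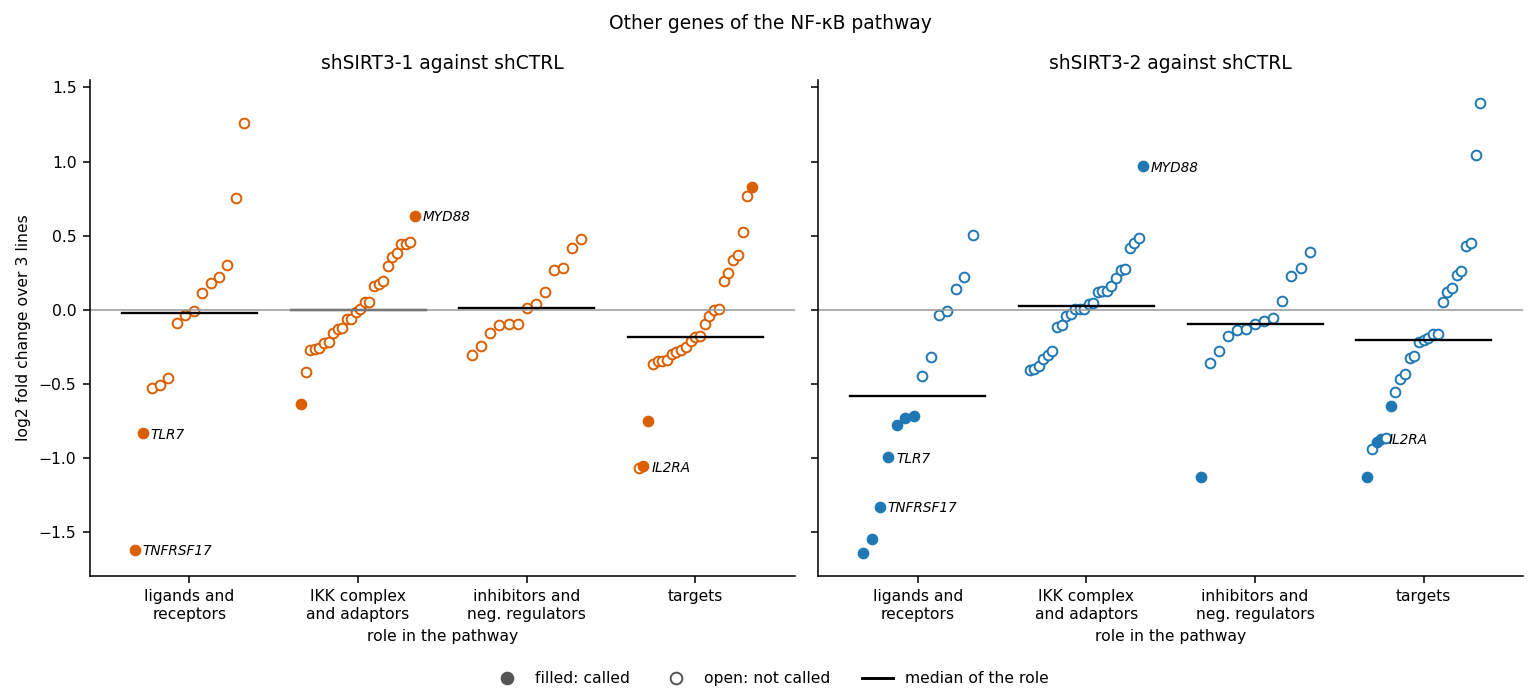
Log2 fold change over the 3 lines of the other pathway genes tested, by role, for shSIRT3-1 and shSIRT3-2. Filled points passed the fold and p thresholds and black lines are medians. TNFRSF17, TLR7 and IL2RA lie among the lowest points in their roles and MYD88 is the highest IKK component or adaptor in both panels.

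In HBL1 17 of 76 wider genes were called with shSIRT3-1 (4 higher and 13 lower) and 22 with shSIRT3-2 (6 higher and 16 lower), near the 27.7% and 23.5% of all genes. Without replicate 3 in every HBL1 group these counts were 23 and 34 of 75, and the share of all genes called in that fit is not given here. In the fit with every library 8 were lower with both shRNAs, against 7.87% of all genes, and 2 were higher, against 2.47%. Besides TNFRSF17 and TLR7, TNFRSF8, which encodes CD30, fell from 2.11 ± 0.46 CPM to 0.624 ± 0.17 and 0.417 ± 0.09 CPM. TNF, the inflammatory cytokine, rose from 7.07 ± 1.503 CPM to 13.9 ± 2.90 and 40.1 ± 5.21 CPM, a log2 change of 0.96 ± 0.20 with shSIRT3-1 (limma adjusted p = 0.00552) and 2.50 ± 0.20 with shSIRT3-2 (limma adjusted p = 0.000102). CFLAR, CD44, CD80, CD86 and IRF4 were lower and CD83 was higher with both.

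In Karpas422 16 of 60 wider genes were called with shSIRT3-1 (12 higher and 4 lower) and 10 with shSIRT3-2 (7 higher and 3 lower). Of all genes 16.0% and 15.0% were called there, 4.45% and 5.55% higher and 11.5% and 9.44% lower. MAP3K14, which encodes NIK, the kinase that starts the alternative branch, rose from 17.1 ± 2.77 CPM to 37.4 ± 4.90 CPM with shSIRT3-1 (1.13 ± 0.13, limma adjusted p = 0.000459) and to 25.9 ± 1.27 CPM with shSIRT3-2 (0.61 ± 0.13, limma adjusted p = 0.00823). STAT5A, a transcription factor of cytokine signaling, rose from 131 ± 19.5 CPM to 200.2 ± 3.06 and 214 ± 13.6 CPM. MYD88 and RNF31 were also higher and TNFRSF17 lower with both shRNAs. In OCI-Ly1 3 of 63 wider genes were called with shSIRT3-1 and 11 with shSIRT3-2, none with both, against 4.50% and 6.41% of all genes. When single libraries were left out, between 0 and 7 genes were called with shSIRT3-1 and between 2 and 14 with shSIRT3-2. The replicate block gave 6 and 15 in OCI-Ly1.

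Between control lines the wider list split by role. Targets were higher in HBL1 than in Karpas422 for 21 of 25 and lower for none, and higher than in OCI-Ly1 for 21 of 25 and lower for 3. Of all genes 25.8% were higher and 28.8% lower in HBL1 than in Karpas422, and 29.6% were higher and 25.0% lower than in OCI-Ly1. A gene needed 1 CPM in only 3 control libraries to be tested. Genes that passed through the HBL1 controls alone could therefore only come out higher in HBL1, so these counts are no independent support for high targets there. Of the 76 wider genes tested, 67 remained when any 1 HBL1 control was left out. Of the IKK components and adaptors 4 of 26 were higher and 6 lower than in Karpas422, and 8 were higher and 4 lower than in OCI-Ly1. For ligands and receptors 4 of 12 were higher and 6 lower than in Karpas422, and 9 were higher and 2 lower than in OCI-Ly1. Among 13 inhibitors 6 were higher and 2 lower than in Karpas422, and 5 were higher and 2 lower than in OCI-Ly1. Higher than in both other lines were 29 wider genes, and lower than in both were 4, against 16.7% and 13.8% of all genes. The widest differences were in CD44, an adhesion receptor, at 652 ± 30.5 CPM in HBL1 against 0.028 ± 0.03 CPM in Karpas422 and 0.442 ± 0.70 CPM in OCI-Ly1, and in IRF4, a plasma-cell transcription factor, at 378 ± 31.9 CPM against 0.022 ± 0.01 and 0.869 ± 0.52 CPM. TNFRSF13B (TACI) and TNFRSF1B (TNF receptor 2) had 145 ± 11.02 and 86.0 ± 6.89 CPM in HBL1 and under 1 CPM in every control library of the other lines. The 4 that were lower were CD27, LTB, RIPK1 and TAX1BP1, with CD27 at 1.72 ± 0.33 CPM in HBL1 against 21.7 ± 2.64 CPM in Karpas422 and 48.7 ± 5.36 CPM in OCI-Ly1.

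Genes outside the family whose pattern over the 27 libraries was most like that of 3 members were found by the root mean square difference of log2 values, each gene centered on its own mean, among 13076 genes. Nearest to NFKB2, whose own SD was 1.85, were IL15RA (0.38), PRG2 (0.41) and FAM105A (0.45). Nearest to NFKBIA, with an SD of 0.86, were UBALD2 (0.30), C11orf24 (0.32) and ARHGAP25 (0.34). Nearest to BCL2A1, with an SD of 2.78, were KCNN4 (0.53), OPTN (0.55) and SLCO5A1 (0.56). The points are libraries of 3 lines, so genes that differ between the lines in the same way come out as alike.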

How the data were processed

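The authors made total RNA libraries on day 8 (TRIzol, RNeasy, TruSeq, random priming), read both ends of each fragment, used STAR against hg19 (named in the submitters' processing notes) and counted RefSeq genes through Rsubread. Whether strand was used is not given in the sources used here, so reads of overlapping antisense genes cannot be told apart. The deposited values are labelled FPKM, but within a library every value is a whole multiple of 1 step whatever the gene's length (100% within a tolerance of 0.1), so the deposited values were read as CPM. Reads on these genes make up between 40.3% and 45.6% of the total the authors divided by, and what that total holds is not given in the sources used here. In 2 OCI-Ly1 libraries, shCTRL replicate 3 and shSIRT3-2 replicate 1, the step (0.00995 and 0.00990 CPM) is close to a round decimal value. Their recovered reads were therefore held as less certain. Read counts carry counting error, which limits the low genes.

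Groups came from the sample labels. log2(CPM + 0.1) was fitted with limma 3.58.1 (trend) in R 4.3.3, over genes with at least 1 CPM in at least 3 of the libraries fitted, so fold changes of low genes are understated. The test had been planned for values named FPKM or CPM and was applied unchanged. Line was an additive term over the 3 lines, and p was adjusted by Benjamini-Hochberg over all genes tested. Genes were called at a fold above 1.5 and adjusted p under 0.05, and the interaction of line and shRNA by an F test at adjusted p under 0.05. SE is the moderated standard error of limma. The fits were tested on simulated data.

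The members and the wider list were chosen with earlier results of these data known. Named were the 10 members, SIRT3, wider genes called the same way with both shRNAs over the lines or in a line (up to 4 a line by mean size), and the 4 highest and 4 lowest of those called the same way in HBL1 against each other line; others were named beside a count after their values were seen. A further B-cell marker of the planned list is not reported here. The promoter search, gene positions (GENCODE v44 lifted to hg19) and transcript lengths (MANE) came from reference tables.

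Replicate numbers were checked as pairs by the correlation, over genes, of deviations from group means. Every same-number pair was above 0.1 in HBL1 (0.217 to 0.498) and in OCI-Ly1 (0.109 to 0.564), and not in Karpas422 (lowest 0.0144). The numbers were therefore taken to pair samples in the former lines. Means in Karpas422 were 0.291 for same-number pairs and −0.128 for other pairs, and those in OCI-Ly1 were 0.271 and −0.126. By their means these lines do not differ, so the samples of Karpas422 may be paired as well. Alternatives were other pseudocounts (0.01 and 1), no filter, quantile and median-ratio scaling, a replicate block, edgeR 4.0.16 on recovered reads, and leaving out libraries or lines.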

Additional observations from a re-analysis of the deposited data

Results flagged for a closer look

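NFKBIA, BCL2A1, REL and CD40 passed the test of the line by shRNA interaction, in limma with p adjusted over 13076 genes, and 41.8% of all genes passed that test. NFKBIA had the smallest adjusted p (0.00159). Its log2 change with shSIRT3-1 was −0.90 in HBL1, −0.08 in OCI-Ly1 and 0.05 in Karpas422, and with shSIRT3-2 it was 0.13, −0.62 and −0.27. BCL2A1 followed (adjusted p = 0.00402), and the value rests in part on Karpas422, where at most 21 reads were counted in a library. REL (adjusted p = 0.0116) was called higher with shSIRT3-2 in Karpas422 and lower with shSIRT3-1 in HBL1. CD40 (adjusted p = 0.0484) lies at the threshold, with its call in Karpas422 with shSIRT3-2 and none in HBL1. Without replicate 1 of every group none of the 10 genes passed, and without replicate 2 REL and NFKBIA did. In HBL1, replicate 3 was the lowest library in all groups for REL, BCL2A1 and CD40. Without replicate 3 of every group REL and CD40 did not pass, NFKBIA and BCL2A1 did, and NFKB1, NFKB2, RELB and TRAF1 passed as well. With the replicate number as a block all 4 passed, with NFKB1, NFKB2 and RELB added.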

How the results depend on the processing

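Among 2026 values of single members under all alternatives 1857 kept their direction and side of the threshold, 93 lost a call, 44 gained one, and 32 that were called under neither setting turned their sign. No called value turned its sign. In counts of the 10 genes called, a pseudocount of 1 gave 3 with shSIRT3-2 over the lines (RELB, TNFAIP3 and TRAF1). Quantile normalization gave 0 with shSIRT3-1 in Karpas422 and 2 with shSIRT3-2 in HBL1, and median-ratio scaling and edgeR each gave 0 with shSIRT3-1 in Karpas422. The replicate block gave 3 and 7 in OCI-Ly1, 3 with shSIRT3-2 in HBL1, and 7 for the interaction, and moved no other count by more than 1.5 times. Over the lines the block gave 3 and 6 calls. In Karpas422 it kept the call of TRAF1 with shSIRT3-1 and those of REL, CD40 and TRAF1 with shSIRT3-2. Without Karpas422 cells 6 genes were called with shSIRT3-1. Without OCI-Ly1 cells 1 was called with shSIRT3-2 and 1 between the shRNAs (NFKB1). Without HBL1 cells 1 was called with shSIRT3-1 and 2 between the shRNAs (BCL2A1 and CD40). With a replicate or library left out, counts ran from 1 to 3 for shSIRT3-1 and from 1 to 6 for shSIRT3-2 over the lines, 0 to 1 and 2 to 3 in Karpas422, 0 to 1 and 0 to 4 in OCI-Ly1, 3 to 8 and 1 to 4 in HBL1, and 0 to 6 for the interaction. Between control lines they ran from 8 to 9 (HBL1 against Karpas422), 5 to 8 (HBL1 against OCI-Ly1) and stayed at 8 (OCI-Ly1 against Karpas422), and between the shRNAs over the lines they stayed at 0. In a fit that leaves a group with 2 libraries these are assumed to vary like the other groups. The causes of these changes were not tested, and the shares of all genes called under each alternative are not set beside these counts. Depth limits BCL2A1 in Karpas422, which at 3 to 21 reads a library was not tested.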

Other observations

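Ligands of the TNF family moved differently from line to line. TNF had 50.5 ± 29.8 CPM in Karpas422 controls, 174 ± 9.51 CPM with shSIRT3-1 and 24.2 ± 15.9 CPM with shSIRT3-2, so that it rose with the first (2.05 ± 0.69 on the log2 scale, limma adjusted p = 0.0435) and was not called with the other (−1.16 ± 0.69), while in HBL1 it rose with both. Its response differed between lines (limma adjusted p = 0.000418). LTB, which encodes lymphotoxin beta, a ligand of the alternative branch, fell in OCI-Ly1 with shSIRT3-2 from 38.1 ± 10.8 to 5.71 ± 3.31 CPM (limma adjusted p = 0.0178) and rose in HBL1 with shSIRT3-1 from 2.08 ± 0.49 to 8.24 ± 1.44 CPM (limma adjusted p = 0.000544). Its response also differed between lines (limma adjusted p = 0.0347), and over the lines LTB was 2.30 ± 0.45 lower with shSIRT3-2 than with shSIRT3-1 (limma adjusted p = 0.000382).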
